A study of Bos taurus with 8 samples.

Results

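The STAT family members STAT2, STAT3, STAT4, STAT5A, STAT5B and STAT6 were followed in bovine peripheral blood mononuclear cells (PBMC). These were isolated from whole blood after it was held with the endotoxin lipopolysaccharide (LPS), or from blood without it. The members were taken by gene name from the single-cell RNA tables, where each name had 1 row, so that 6 of 21861 listed genes are described. The same 6 Ensembl identifiers were read from the 4 chromatin tables, which listed between 11573 and 13821 genes. The identifiers are ENSBTAG00000004380 (STAT2), ENSBTAG00000021523 (STAT3), ENSBTAG00000046699 (STAT4), ENSBTAG00000009496 (STAT5A), ENSBTAG00000010125 (STAT5B) and ENSBTAG00000006335 (STAT6). In the RefSeq gene table of assembly ARS-UCD2.0, used only for gene order, STAT5A lay between STAT5B and STAT3 with no other protein-coding gene between neighbours. STAT2 and STAT6 lay on 1 chromosome with 23 protein-coding genes between them.

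STAT proteins wait in the cytoplasm, are phosphorylated by Janus kinases (JAK) at the tails of occupied cytokine receptors, pair up, and enter the nucleus to bind DNA. LPS itself is sensed by Toll-like receptor 4, which does not use STAT proteins directly, and the interferons and cytokines that LPS-treated leukocytes release then act on STAT-coupled receptors of the same and neighbouring cells. STAT2 serves type I interferon together with IRF9, STAT3 serves IL-6 and IL-10, STAT4 serves IL-12, STAT5A and STAT5B serve IL-2, IL-7 and colony-stimulating factors, and STAT6 serves IL-4 and IL-13.

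Whole blood of 4 Holstein cattle, female and 2 years old, was pooled and divided into 4 parts. One part received no LPS, and the others were held for 2 h, 4 h or 8 h with 2 µg/ml LPS before PBMC were isolated. Each of these gave 1 scRNA-seq library, which counts transcripts by unique molecular identifiers (UMIs), and 1 scATAC-seq library, which counts transposase cuts in open chromatin. The animals were pooled and no treatment had a second library, so no test was possible, the animals' spread is unknown, and effects of LPS, of a library and of time in culture cannot be told apart. How long the untreated part was incubated is not given in the sources used here.

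Filtering left 7821, 9865, 7387 and 3411 cells in the order no LPS, 2 h, 4 h and 8 h, with 16657841 to 47875879 UMIs per library. Pairs of libraries shared between 6 and 21 cell barcodes. Levels are UMIs of a gene per 1000000 UMIs of its library or class (CPM), and each 95% interval covers only counting error. A difference is the log2 ratio of CPM + 1, and its interval is that of the ratio without the added 1. With no replicate to test against, a gene was called higher or lower when its ratio passed 1.5-fold with at least 20 UMIs in the compared pair.

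Cells were put into 4 classes by UMIs of CD14, CD3E, MS4A1 and NCR1, the usual marks of monocytes, T cells, B cells and NK cells. The CD14 class held 645, 279, 102 and 47 cells (no LPS, 2 h, 4 h and 8 h), the CD3E class 3640, 5012, 3899 and 1659, the MS4A1 class 1771, 2445, 1930 and 744, and the NCR1 class 63, 99, 91 and 39. The ungated remainder was 1702, 2030, 1365 and 922 cells, with a median of only 1581 UMIs at 8 h against 3038 to 4143 in the other libraries. The 9 other T cell markers of a list of 10 summed in the MS4A1 class to between 8.11% and 9.97% of their level in the CD3E class. The 9 other B cell markers summed in the CD3E class to between 8.27% and 11.3% of their level in the MS4A1 class. The NCR1 class held the same T cell markers at 51.8% to 54.3% of the CD3E class, with CD28 at 0 in every library. The 7 neutrophil markers tested summed to 5509 to 11583 CPM in the CD14 class, where the 9 other monocyte markers summed to 1948 to 3670 CPM. Of the neutrophil markers only PGLYRP1 was at 0 there, so that CSF3R, CXCR1, CXCR2 and PADI4 were above 0 in every library. Several others, such as S100A12 and FPR1, are also expressed by monocytes, and the part of granulocytes in this class was not tested. The part of other cell types' transcripts in the results was not tested.

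Over all cells no member was called lower at any time, and the members called higher were STAT4 at 2 h, STAT2, STAT4 and STAT5A at 4 h, and STAT2 and STAT5A at 8 h. At 2 h this was 1 of 6 members, where 3.18% of all 12150 genes tested were called higher and 6.29% lower. At 4 h it was 3 of 6 against 4.72% higher and 9.05% lower of 12060 genes. At 8 h it was 2 of 6 against 4.86% higher and 6.65% lower of 11778 genes. The members' median log2 ratio was 0.37, 0.56 and 0.48 at the 3 times, beside -0.03, 0.02 and 0.10 over all genes tested. Only STAT6 at 8 h had a ratio below 0. A sum over all cells cannot tell fewer cells of a type from less RNA per cell, and the CD14 class was 8.25% of the cells without LPS, 2.83% at 2 h and 1.38% at 4 h and 8 h.

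When every class was given the share of UMIs it had without LPS, the number called at 8 h went from 2 to 0, with STAT2 at 0.55 and STAT5A at 0.56. At 4 h STAT5A then stood at 0.55, under 1.5-fold, while STAT2 at 0.90 and STAT4 at 0.75 stayed past it, as did STAT4 at 2 h with 0.63. The values within classes below do not depend on those shares.

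**Figure D1:**
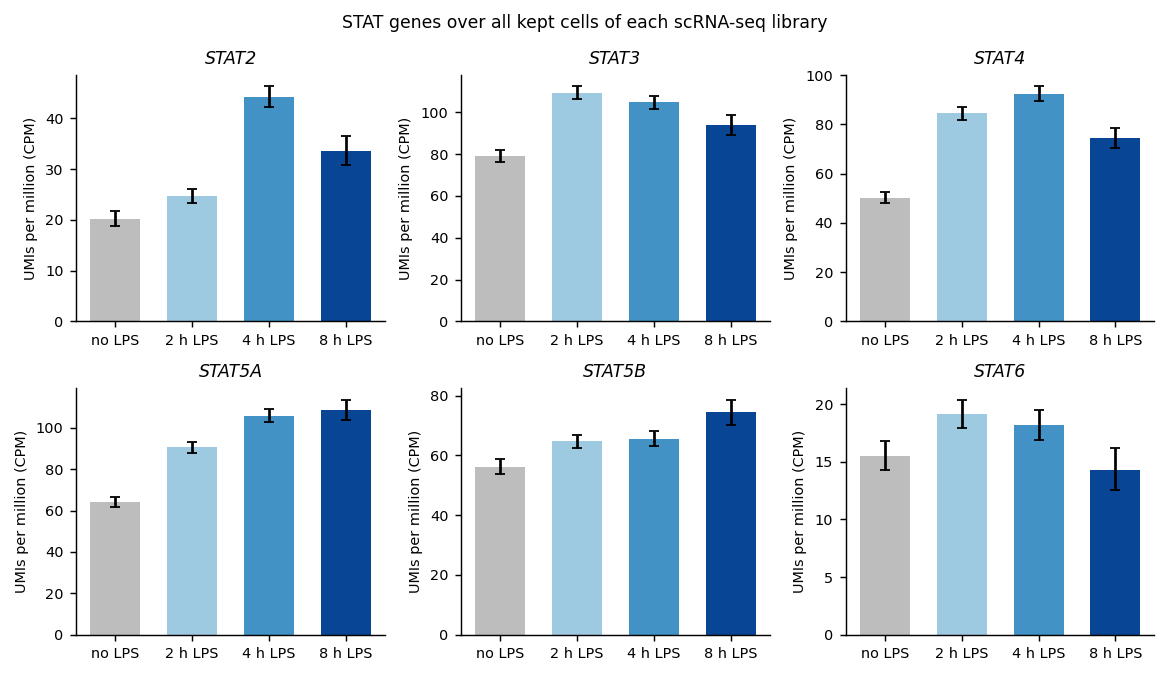
CPM (vertical axis, from 0) of the 6 STAT genes over all kept cells of the 4 scRNA-seq libraries (horizontal axis), with bars for 1 library each and whiskers for the 95% Poisson interval, counting error only. STAT2 and STAT4 are highest at 4 h and STAT5A and STAT5B at 8 h, where STAT5A is within counting error of 4 h. STAT6 spans the narrow range of 14.3 to 19.1 CPM.

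STAT2, the partner of IRF9 in the interferon-driven factor ISGF3, was low without LPS and highest at 4 h. Its 4 levels over all cells were 20.2, 24.6, 44.2 and 33.6 CPM, in the order no LPS, 2 h, 4 h and 8 h that is kept from here on. Against no LPS it was 0.27 on the log2 scale at 2 h (interval 0.15 to 0.42), rose by 1.09 at 4 h (1.01 to 1.25) and was still up by 0.71 at 8 h (0.57 to 0.89). The largest step lay between 2 h and 4 h, whereas STAT3 and STAT4 were near their highest level at 2 h already.

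STAT2 was highest in the MS4A1 class in each of the 4 libraries, with 31.8, 36.6, 66.4 and 50.2 CPM, although without LPS and at 2 h it was not separated from the NCR1 class, whose counts were few. The CD3E class followed the same course at a lower level, with 18.9, 21.5, 34.5 and 28.6 CPM. In the MS4A1 class STAT2 rose by 1.04 at 4 h (0.86 to 1.27) and in the CD3E class by 0.84 (0.67 to 1.07), and these intervals overlap. Between the classes the difference was larger than its counting interval throughout, with the CD3E class at -0.72 log2 units (-0.99 to -0.50) relative to the MS4A1 class without LPS and at -0.92 (-1.09 to -0.79) at 4 h. The CD14 class was lowest in every library at 7.44, 4.97, 11.8 and 8.35 CPM, from only 49, 17, 13 and 5 UMIs, and at 8 h it was not separated from the NCR1 class. The NCR1 class lay between 20.1 and 38.1 CPM and could not be told from the CD3E class in any library.

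STAT4, through which IL-12 drives interferon-γ production in T and NK cells, was the 1 member called over all cells at 2 h. Its level over all cells was 50.1, 84.5, 92.4 and 74.4 CPM. It rose by 0.74 at 2 h (0.67 to 0.83) and by 0.87 at 4 h (0.80 to 0.96), and at 8 h the ratio of 0.56 (0.47 to 0.67) lay just under the 1.5-fold line.

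In the CD3E class STAT4 was at 62.7, 105, 109 and 87.0 CPM and rose by 0.74 (0.64 to 0.86) at 2 h and 0.80 (0.70 to 0.91) at 4 h. The MS4A1 class began at 51.6 CPM, close to the CD3E class, and went to 62.9, 66.3 and 57.3. The B cell-marked class therefore moved less, with ratios of 0.28, 0.36 and 0.15 that were never called. The CD3E class exceeded the MS4A1 class by 0.28 log2 units (0.12 to 0.45) without LPS and by 0.73 (0.63 to 0.86) at 2 h, and these intervals do not overlap. STAT4 in the MS4A1 class was 59.8% to 82.3% of its level in the CD3E class, and the T cell markers there were at most 9.97% of theirs. The gate of the MS4A1 class leaves out cells with CD3E UMIs, and the part of T cell transcripts in it was not tested.

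The CD14 class had the least STAT4 in every library but the largest ratio. Its levels were 10.2, 22.2, 34.5 and 20.0 CPM from 67, 76, 38 and 12 UMIs. STAT4 rose there by 1.06 at 2 h (0.63 to 1.62) and by 1.67 at 4 h (1.15 to 2.36), and at 8 h the ratio of 0.91 had an interval of -0.04 to 1.88. At 4 h STAT4 reached 31.5% of the CD3E class level, and the summed T cell markers were at 1.02% of theirs, with CD3G, CD6, BCL11B and CD28 at 0. The gate of the CD14 class leaves out cells with CD3E UMIs, which by itself lowers T cell markers. How much of the STAT4 there came from T cell transcripts was not tested. Without the limit of 3000 genes per cell the class gave 10.8, 27.2, 45.2 and 20.7 CPM from 731, 313, 117 and 70 cells, and the ratio at 8 h was 0.88 (0.27 to 1.57).

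**Figure D2:**
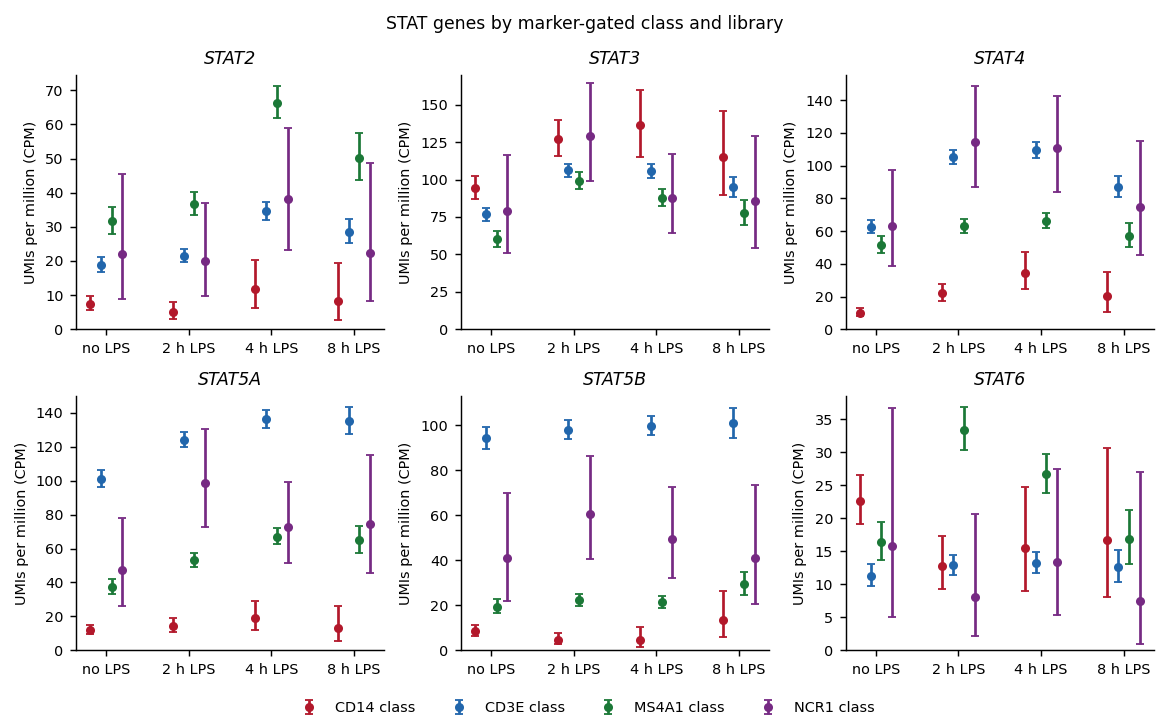
CPM (vertical axis, from 0) of each STAT gene in the 4 marker-gated classes of each scRNA-seq library (horizontal axis), with 1 point per class and library and whiskers for the 95% Poisson interval. STAT5A and STAT5B separate the CD3E class from the MS4A1 and CD14 classes in every library, STAT2 is highest in the MS4A1 class, and STAT4 is lowest in the CD14 class.

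STAT3, which carries the IL-6 and IL-10 signals, was present at similar levels in all classes. Its largest ratio over all cells was below those of STAT2, STAT4 and STAT5A and above those of STAT5B and STAT6. Over all cells STAT3 had 79.1, 109, 105 and 93.9 CPM in the same order of libraries. Its ratios of 0.46 (0.40 to 0.53), 0.40 (0.34 to 0.47) and 0.24 (0.16 to 0.34) all lay above 0 and all below 1.5-fold, so it was not called.

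Within classes the only called differences in STAT3 by CPM were at 2 h. Cells of the MS4A1 class had 60.4, 99.2, 87.8 and 77.6 CPM of STAT3, which rose by 0.71 at 2 h (0.56 to 0.87). The CD3E class with 76.8, 106, 105 and 94.8 CPM reached 0.46 (0.37 to 0.57) at 2 h, and the CD14 class with 94.5, 127, 136 and 115 CPM reached 0.42 (0.25 to 0.61). The CD14 value rests on the scaling, because the median of all genes in that class was -0.57 at 2 h. With edgeR TMM scaling in place of CPM, STAT3 in the CD14 class was 0.91 at 2 h and 0.64 at 4 h, both past 1.5-fold. In the NCR1 class STAT3 went from 78.7 to 128.8 CPM at 2 h and rose by 0.70 (0.02 to 1.44). The CD14 class exceeded the CD3E and MS4A1 classes in each library, but at 8 h the interval of its ratio to the CD3E class included equality. STAT3 was the 1 member for which the CD14 class was at or near the top throughout.

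STAT5A and STAT5B are near-identical neighbours that serve the same receptors. Reads that matched both could have been left out by the counting, and so their absolute levels are uncertain. Over all cells STAT5A stood at 64.1, 90.5, 105.8 and 108.5 CPM, and STAT5B at 56.3, 64.7, 65.7 and 74.4 CPM. STAT5A was called at 4 h, where it rose by 0.71 (0.65 to 0.79), and at 8 h by 0.75 (0.67 to 0.85), while STAT5B had 0.20, 0.22 and 0.40 and was never called. Both were at their highest in the 8 h library, unlike the other members.

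Both paralogs were highest in the CD3E class in all 4 libraries, followed by the NCR1, MS4A1 and CD14 classes. STAT5A in the CD3E class had 101, 124, 136 and 135 CPM, with ratios of 0.29, 0.43 and 0.42 that were not called. In the MS4A1 class it started lower, at 37.4 CPM, went to 53.1, 67.0 and 64.8, and rose by 0.82 at 4 h (0.65 to 1.04) and 0.78 at 8 h (0.55 to 1.03). The increase in the MS4A1 class at 4 h was larger than that in the CD3E class (0.34 to 0.52) beyond counting error. As a result the MS4A1 class went from 37.0% of the CD3E class level without LPS to 49.2% at 4 h.

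STAT5B was the member with the steepest order among classes and the flattest course in T cell-marked cells. In the CD3E class it had 94.2, 98.0, 99.8 and 100.9 CPM, and the ratios of 0.06, 0.08 and 0.10 had intervals that included 0, none reaching above 0.22. In the MS4A1 class it had 19.4, 22.2, 21.4 and 29.3 CPM, and in the CD14 class 8.65, 4.67, 4.54 and 13.4 CPM from 57, 16, 5 and 8 UMIs. The CD3E class exceeded the MS4A1 class 4.66-fold without LPS and 3.36-fold at 8 h, as ratios of CPM + 1. The 4 classes were separated pairwise in this order at no LPS, 2 h and 4 h, and at 8 h the NCR1 and MS4A1 classes were not separated. STAT5B in the MS4A1 class was 20.6%, 22.7%, 21.4% and 29.1% of the CD3E class, where the T cell markers were 9.97%, 9.67%, 8.11% and 9.88%. How much of it came from T cell transcripts was not tested. The CD3E class held 69.4% of all STAT5B UMIs without LPS, with 41.5% of all UMIs. The STAT5B ratio over all cells at 8 h (0.40) fell to 0.21 when the classes were given their shares without LPS.

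STAT6, the IL-4 and IL-13 mediator, was not called over all cells but moved in opposite directions between classes at 2 h. Its levels over all cells were 15.5, 19.1, 18.2 and 14.3 CPM, with ratios of 0.29, 0.21 and -0.11. The MS4A1 class held 16.4, 33.5, 26.7 and 16.8 CPM. That is a rise by 0.99 at 2 h (0.75 to 1.32) and by 0.67 at 4 h (0.41 to 1.01), with a level at 8 h whose ratio of 0.03 (-0.40 to 0.46) could not be told from that without LPS. STAT6 and STAT3 were the members called in the MS4A1 class at 2 h.

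The CD3E class had 11.3, 12.9, 13.2 and 12.6 CPM of STAT6 and no ratio whose interval excluded 0. In the CD14 class the levels were 22.6, 12.9, 15.4 and 16.7 CPM, the first of them the highest of any class without LPS. The 2 h ratio was -0.77 (-1.33 to -0.32), past 1.5-fold, but it rests on the scaling. The median of all genes in that class was itself -0.57 at 2 h, and under edgeR TMM scaling, which moved that median to -0.12, STAT6 stood at -0.30. STAT5B at 2 h likewise stood at -0.77 by CPM and at -0.34 by TMM.

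**Figure D3:**
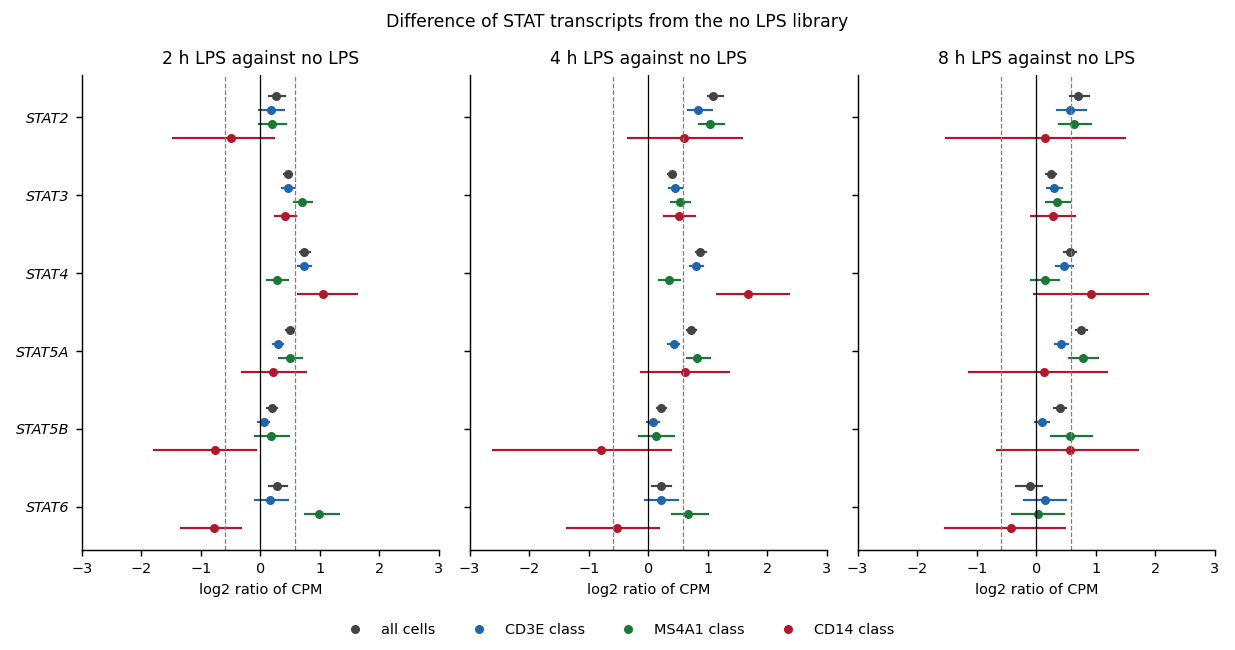
Log2 ratio of CPM against the no LPS library (horizontal axis) for the 6 STAT genes (rows) at 2 h, 4 h and 8 h, with points for all cells and for the CD3E, MS4A1 and CD14 classes, lines for the 95% counting interval and dashed lines at 1.5-fold. STAT4 is furthest right in the CD14 class at 2 h and 4 h, STAT6 in the MS4A1 class stands at 0.99 at 2 h and 0.03 at 8 h, and the CD14 intervals are the widest.

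By class, the counts of members called higher were read against all genes tested. In the CD3E class they were 1, 2 and 0 of 6 at 2 h, 4 h and 8 h, with 2.06%, 3.44% and 4.41% of all genes called higher, and the members were STAT4 at 2 h and STAT2 and STAT4 at 4 h. In the MS4A1 class they were 2, 3 and 2 of 6, beside 7.19%, 7.85% and 7.83% of all genes, and STAT2 and STAT5A were called at both 4 h and 8 h.

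The CD14 class had 1, 3 and 1 of 6 members called higher, beside 7.09%, 11.8% and 12.8% of all genes, and STAT4 was among them each time. The others at 4 h were STAT2, at 0.60 (-0.34 to 1.57) from 13 UMIs, and STAT5A, at 0.61 (-0.12 to 1.36) from 21 UMIs. Both intervals included 0, as did that of STAT4 at 8 h (-0.04 to 1.88). STAT5B and STAT6 were called lower at 2 h, where 48.8% of all genes were, and STAT5B at 4 h, where 27.8% were, and these counts are not a result about the members. Under TMM scaling 3 members were called higher at 2 h (STAT3, STAT4 and STAT5A) and none lower, beside 14.8% of all genes higher and 21.7% lower under that scaling. The limit of 3000 genes mattered as well, because without it STAT5B at 4 h was 0.14 (-0.72 to 0.94) in place of -0.80.

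In the NCR1 class 4 to 5 members had 20 UMIs in a pair. Of these 3 of 4, 3 of 5 and 1 of 4 were called higher as time went on, beside 15.1%, 15.3% and 13.7% of all genes tested. STAT4 there had 63.0, 114.7, 110.5 and 74.7 CPM and rose by 0.86 at 2 h (0.11 to 1.68), and STAT5A had 47.2, 98.6, 72.4 and 74.7 CPM and rose by 1.05 at 2 h (0.20 to 2.00). The class held 11 to 64 UMIs of STAT3, STAT4, STAT5A and STAT5B in any library, which leaves the later ratios within counting error of 0 except that of STAT4 at 4 h (0.06 to 1.62).

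The other genes of the pathway were taken from 5 lists, and over all cells none of the kinases changed past 1.5-fold. JAK1, JAK2, JAK3, TYK2 and IRF9 had 0 of 5 called at each time, with a median log2 ratio of 0.08, 0.20 and 0.12 beside -0.03, 0.02 and 0.10 for all genes. IRF9, the DNA-binding partner of STAT2, came closest at 4 h, where it went from 130.3 to 195 CPM (0.58). This was just under the 1.5-fold line. Within the CD14 class 2, 2 and 1 of these 5 genes were called higher, beside the 7.09%, 11.8% and 12.8% of all genes given above. JAK2 rose there by 1.09 at 2 h, TYK2 by 0.88, 0.98 and 0.93 at the 3 times, and IRF9 by 1.08 at 4 h. JAK2 also rose in the MS4A1 class at 2 h (0.79), beside 7.19% of all genes called higher, and in the CD3E class none of the 5 was called. In the NCR1 class JAK3 was lower by 0.80 at 4 h (-1.56 to -0.07), from 32 against 34 UMIs. At 8 h it was lower by 0.74 from 17 against 34 UMIs, with an interval that included 0 (-1.69 to 0.13). There 11.5% and 12.6% of all genes were called lower at 4 h and 8 h.

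Among 21 of 23 receptor chains with enough UMIs, 4 were higher and 2 lower at both 2 h and 4 h, and 2 higher and 2 lower at 8 h. Of all genes tested, 3.18%, 4.72% and 4.86% were higher and 6.29%, 9.05% and 6.65% lower at 2 h, 4 h and 8 h. IL2RA, the high-affinity chain of the IL-2 receptor that signals through STAT5A and STAT5B, rose from 51.0 CPM to 118, 142 and 96.0. IL12RB2, the IL-12 receptor chain that binds STAT4, was rare at 1.95, 3.61, 4.58 and 4.02 CPM and rose by 0.65, 0.92 and 0.77. CSF3R, the receptor of the granulocyte factor CSF3, went from 6.36 to 10.2 and 13.6 CPM at 2 h and 4 h, rising by 0.60 and 0.99. IL13RA1, an IL-13 receptor chain of myeloid cells, fell by 1.54, 2.32 and 1.61, and CSF2RA by 0.87, 1.09 and 0.80, in libraries where the CD14 class was a smaller part of the cells. Within the CD14 class neither was called lower, with IL13RA1 at -0.56, -0.45 and 0.08 and CSF2RA at -0.37, 0.51 and 0.70.

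The ligands were the list with the sharpest turn. At 2 h 7 of 15 were higher and 1 lower, with a median of 0.46, and at 4 h 2 of 13 were higher and 3 lower, with a median of -0.09. Shares of all genes called at each time were those given beside the receptor chains. CSF3 rose by 2.63, IFNG by 2.35 and CSF2 by 1.52 at 2 h, while OSM, a cytokine of the IL-6 family, fell by 1.03. IL6, the main ligand of STAT3, had 268, 545, 75.8 and 73.7 CPM, falling by 1.81 and 1.85 at the later times. The CD14 class, which had shrunk from 8.25% to 1.38% of the cells by then, held IL6 at 1248, 5037, 1381 and 1086 CPM. Within it IL6 rose by 2.01 at 2 h and was not called afterwards, at 0.15 and -0.20. IFNG was still up by 1.40 and IL7 by 0.67 at 4 h, with IL15 down by 0.88 and OSM by 1.67. At 8 h 3 of 13 were higher (IL13, CSF2 and IL2, by 1.36, 1.03 and 0.64) and 4 lower, the largest falls being in IL6, OSM (-1.07) and IL15 (-0.70). Within the CD14 class OSM was called lower at 2 h and 4 h, and at 8 h 0 of the 5 ligands with enough UMIs were. At 4 h and 8 h OSM was called higher in both the CD3E and the MS4A1 class. IL15 at 8 h was called higher in the CD3E class and lower in the MS4A1 class.

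Of the 16 inhibitors tested, 3 were higher and 0 lower at 2 h, where 3.18% of all genes were higher and 6.29% lower. At 4 h 2 were higher and 1 lower, beside 4.72% and 9.05%, and at 8 h 3 were higher and 0 lower, beside 4.86% and 6.65%. CISH, an inhibitor of STAT5 signalling and itself a STAT5 target, was the only one higher at all 3 times, with 23.6, 36.3, 46.6 and 41.7 CPM. PTPN1 rose by 0.63 and SOCS3, which blocks STAT3 signalling, by 0.62 at 2 h. USP18, which dampens the interferon receptor, rose by 1.67 at 4 h, and the phosphatase PTPN6 fell by 0.69 there. SOCS1 and SOCS2 rose by 0.68 and 0.63 at 8 h.

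The 19 known STAT targets held the most genes called higher, with 11, 10 and 5 at the 3 times and none lower. Beside this, 3.18%, 4.72% and 4.86% of all genes were higher and 6.29%, 9.05% and 6.65% lower. The list was chosen with earlier results of these data known, and it shares CISH and SOCS3 with the inhibitors. Their median ratios were 0.62, 0.61 and 0.40. ISG15, an interferon-stimulated gene bound by ISGF3, had 163, 1202, 2934 and 339 CPM. IFIT1 rose by 1.83 and 3.32 at 2 h and 4 h, and MX1 by 1.52, 3.32 and 0.84 at the 3 times. These genes and STAT2 all had their highest level at 4 h, but at 8 h STAT2 kept 33.6 of 44.2 CPM while ISG15 kept 339 of 2934. BATF, a STAT3 target in lymphocytes, rose by 1.68 at 2 h and CISH by 0.80 at 8 h. Other cytokine pathways also feed these targets, so their counts do not measure STAT activity.

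**Figure D4:**
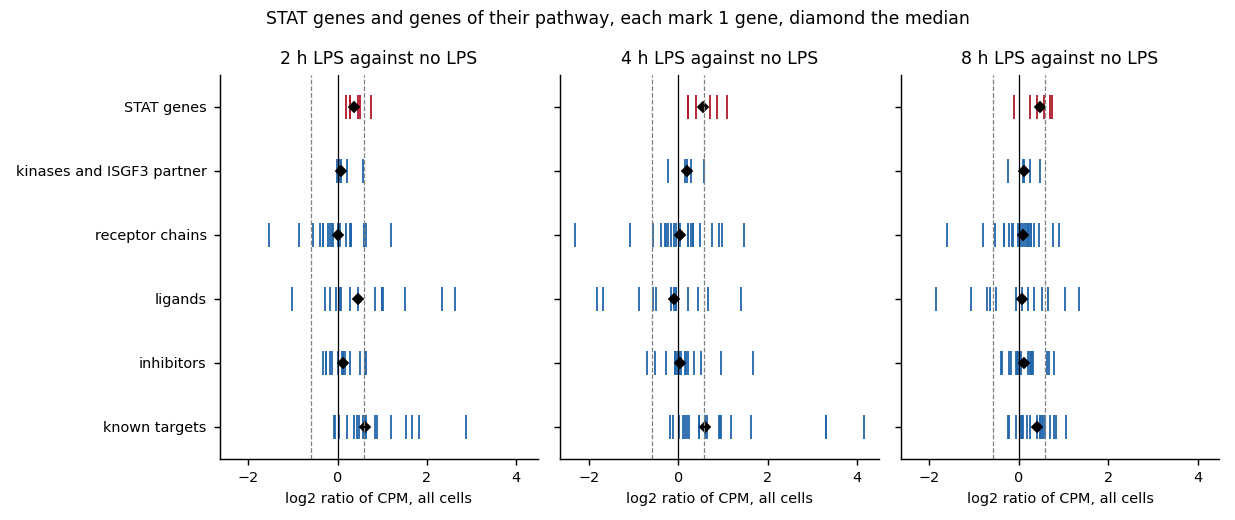
Log2 ratio of CPM against the no LPS library over all cells (horizontal axis) at 2 h, 4 h and 8 h for the STAT genes and 5 lists of pathway genes (rows), with 1 tick per gene that had at least 20 UMIs, a diamond at the list's median and dashed lines at 1.5-fold. The known targets reach furthest right at 4 h with ISG15 at 4.17, the ligands are the most spread at 2 h, and the kinases stay between the dashed lines.

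The genes whose levels most resembled each member were ranked over the 16 sums of 4 classes in 4 libraries, among 9644 genes with at least 200 UMIs. The 16 points share 4 libraries, so the correlations are a description. For STAT2 they were EPSTI1 (Pearson r 0.97), EIF3CL (0.96) and CCT4 (0.95), for STAT4 CXCR4 (0.96), PPA1 (0.96) and SYTL1 (0.94), and for STAT3 ZC3H12A (0.91), JUNB (0.87) and TRAF1 (0.86). For STAT5A they were TIFA (0.97), CREBRF (0.97) and PIM2 (0.96), for STAT5B the unnamed ENSBTAG00000034609 (0.98), NSD3 (0.98) and STN1 (0.97), and for STAT6 SLC6A6 (0.86), EIF4E (0.85) and RAN (0.83). Neither paralog of STAT5 was among the 3 nearest genes of the other.

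The scATAC-seq counts gave the members' accessibility in the LPS libraries, which summed to 30250143, 26837579 and 11957904 counts in order of time. The no LPS library had 975012 counts and a median of 213 per barcode, so 2 h was taken as the base. Levels of different genes were not compared because gene length was not taken into account.

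Of the 6 members only STAT4 differed past 1.5-fold. Its 3 values were 135, 123 and 76.4 CPM, and it fell by 0.81 at 8 h (interval -0.97 to -0.67 from pairs of counts), where 13.4% of 11062 genes were called lower and 2.92% higher. At 4 h none of the members was called, with 3.6% of 12599 genes lower and 0.984% higher. The call at 8 h was lost when barcodes with a count were used in place of counts. Against the shallow no LPS library, with 69.7 CPM from 68 counts, STAT4 at 8 h was instead 0.13, so its direction turned with the base.

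STAT3 had 335, 306 and 330 CPM at the 3 LPS times and STAT6 162, 160 and 170. STAT5A had 108, 106 and 91.1 CPM and STAT5B 158, 141 and 136, and at 8 h these were -0.25 (-0.40 to -0.11) and -0.21 (-0.33 to -0.10) against 2 h. With the no LPS library as the base both directions turned, to 0.32 for STAT5A and 1.16 for STAT5B. STAT2 had the fewest counts, with 20.8, 21.9 and 19.7 CPM. Its chromatin counts at 4 h were thus 0.07 (-0.17 to 0.30) from those at 2 h, while its RNA was at 44.2 against 24.6 CPM.

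Nuclei were told apart by counts in at least 2 genes of a T or a B cell panel and in none of the other panels, which left 170, 99 and 63 T and 432, 275 and 216 B panel nuclei at 2 h, 4 h and 8 h. Only 3 of 6 T panel genes were listed. STAT5B had a count in 51.2% of the T panel nuclei at 2 h (exact binomial interval 43.4% to 58.9%) and in 18.1% of the B panel nuclei (14.5% to 22.0%), at median depths of 6842 and 5249.5 counts. The shares were 46.5% and 20.4% in the 4 h library, at depths of 6664 and 6462, and 34.9% and 16.7% in the 8 h library, at 4953 and 5098, and neither pair of intervals overlapped. STAT5B thus had the same direction between the T and B sides in chromatin as in RNA. STAT5A had 130.3, 148.5 and 132 CPM in T and 85.6, 64.7 and 54.6 in B panel nuclei, and STAT4 had 124, 180 and 155 CPM in T and 89.6, 88.2 and 46.7 in B panel nuclei. STAT6 stood at 154, 162 and 155 CPM in T and 183, 177 and 188 in B panel nuclei. STAT3 had 314, 368 and 351 CPM in T and 312, 273 and 328 in B panel nuclei. STAT2 had 34.7, 5.45 and 34.5 CPM in T panel nuclei, from 41, 4 and 12 counts, and 18.5, 17.2 and 15.8 CPM in B panel nuclei. By CPM it was higher on the T side at 2 h and 8 h and lower at 4 h. A STAT2 count was found in 12.9% of T and 5.79% of B panel nuclei at 2 h. The intervals of these shares overlapped at each time, at 2 h only narrowly. Overlap does not show that the shares were equal, and their difference was not tested. The intervals in T and B panel nuclei were 8.29% to 18.9% and 3.78% to 8.42% at 2 h. At 4 h they were 0.246% to 7.11% and 2.81% to 8.39%, and at 8 h 3.58% to 19.6% and 2.57% to 8.93%. The RNA of STAT2 was higher in the MS4A1 than in the CD3E class in every library. Myeloid panel nuclei numbered only 29, 18 and 2 and were not compared.

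**Figure D5:**
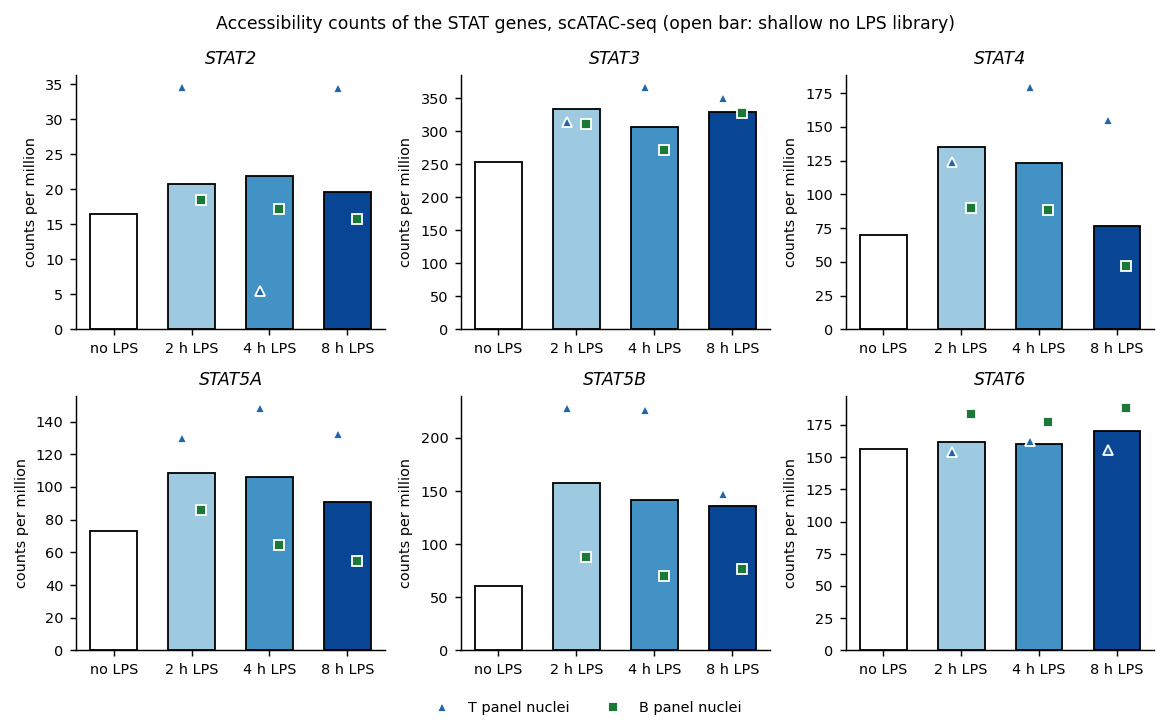
CPM (vertical axis, from 0) of the 6 STAT genes in the 4 scATAC-seq libraries (horizontal axis), with bars for all barcodes, triangles for T panel nuclei and squares for B panel nuclei, each from 1 library and without error bars because counts were not independent. By CPM, STAT5B and STAT5A are higher in T than in B panel nuclei at each LPS time. Over all barcodes STAT4 is lower at 8 h than at 2 h and 4 h.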

How the data were processed

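The deposited scRNA-seq tables hold UMI counts without normalization for each gene and cell, which the study's methods and the submitters' processing notes credit to Cell Ranger on the ARS-UCD1.2 (bosTau9) genome. The deposited scATAC-seq tables hold a count for each gene in each barcode, of which 88.7% to 93.8% above 0 were even, and the rule that assigned fragments to genes is not given in the sources used here. Depth was 16657841 to 47875879 UMIs per scRNA-seq library.

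A cell needed 200 to 3000 genes and a mitochondrial share under 20%, as in the study, and 200 UMIs or more. The study words its UMI limit as counts below 200, which was read here as a minimum. The study also removed genes seen in few cells, which was not done here, and states fewer cells per library than these limits left. The cause of that difference is not known. The CD14 class had at least 3 CD14 UMIs and none of CD3E, MS4A1 and NCR1. The others had at least 1 UMI of their marker, none of the other lymphoid markers and under 3 of CD14, which removes cells with 2 lymphoid markers. No doublet caller was run. UMIs were summed per library and class (Python 3 with NumPy and SciPy), with exact Poisson, binomial and conditional binomial intervals. Named genes are the members, up to 3 largest called rises and falls of each list and time, and the 3 genes most correlated with each member. The kinases, IRF9 and further times or genes beside those of the rule (such as IL6 and MX1 at 2 h) were named after their values were seen. edgeR 4.0.16 and DESeq2 1.42.0 gave scaling factors only. The ratio and interval steps were tested on simulated data. The members and lists were chosen with earlier results of these data known.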

Additional observations from a re-analysis of the deposited data

Results flagged for a closer look

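STAT6 at 2 h stood past 1.5-fold in opposite directions in 2 classes of cells, each with a counting interval that left out 0. The log2 ratio against no LPS was 0.99 in the MS4A1 class and -0.77 in the CD14 class. The difference between the classes was not tested, because each class had 1 library per treatment. The median over all genes was -0.12 in the MS4A1 class and -0.57 in the CD14 class, and with edgeR TMM scaling STAT6 in the CD14 class was -0.30, no longer past 1.5-fold.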

How the results depend on the processing

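Most member ratios stayed within their counting interval under the alternatives tried, 658 of 732 values. Part of these could not move, because dropping the minimum of UMIs changes no ratio. A limit of 500 counts per barcode also kept every barcode of the 2 h, 4 h and 8 h libraries. The class shares of the no LPS library moved most ratios over all cells out of their interval, among them STAT2, STAT4, STAT5A and STAT5B at each time. Of the 732 values 23 changed sign, 17 of them from a ratio whose interval included 0. The other 6 were accessibility ratios with the no LPS library as the base, for STAT3 (0.27), STAT4 (0.81) and STAT5B (1.21) at 4 h and for STAT4, STAT5A (0.32) and STAT5B (1.16) at 8 h. Of the ratios past 1.5-fold, STAT5B in the CD14 class at 4 h became 0.00787 with a gate on 1 UMI of 1 marker and 0.14 without the upper limit on genes, and STAT4 accessibility at 8 h became 0.13 with the no LPS library as the base. The numbers of members called higher or lower moved by over 1.5 times as follows, and the cause was not tested. Over all cells the 2 called higher at 8 h became 1 with TMM scaling, with a pseudocount of 10 or with cells weighted equally, and 0 with the class shares of the no LPS library. Of all genes, 2.61%, 0.925%, 6.03% and 4.13% were called higher under these settings in turn. In the CD14 class at 2 h the 2 lower became 1 with the gate on 1 UMI or without the gene limit and 0 with TMM, DESeq2 or a pseudocount of 10, and the 1 higher became 3 with TMM or DESeq2. The shares of all genes lower were 44.5%, 35.3%, 21.7%, 18.7% and 21.3% in that order of settings. With TMM and DESeq2 14.8% and 17.5% of all genes were higher. At 4 h in the CD14 class the 1 lower became 0 with the gate on 1 UMI or the pseudocount of 10, and the 3 higher became 1 with the stricter gate, with at least 2000 UMIs per cell or with the pseudocount of 10. Beside this, 23.2% and 11.7% of all genes were lower, and 11.8%, 11.4% and 6.32% higher, in the same order. At 8 h in the CD14 class the 1 higher became 4, and the 0 lower became 1, with the gate on 1 UMI, where 25.4% of all genes were higher and 10.7% lower. The 1 higher became 2 with 2000 UMIs or DESeq2 and 0 with the pseudocount of 10, beside 12.5%, 14.4% and 5.66% of all genes. In the CD3E class at 8 h the 0 higher became 1 with the gate on 1 UMI or 2000 UMIs, beside 4.13% and 3.81% of all genes. In the MS4A1 class at 8 h the 2 higher became 1 without the gene limit or with the pseudocount of 10, beside 6.43% and 2.27% of all genes. In the NCR1 class the 3 higher at 2 h and the 3 at 4 h each became 1 with the stricter gate, beside 21.4% and 23.0% of all genes. The 1 at 8 h became 0 with the gate on 1 UMI, the stricter gate, without the gene limit or with the pseudocount of 10. Of all genes 13.5%, 21.0%, 13.9% and 11.0% were then higher in turn. In accessibility, with the no LPS library as the base, the 0 higher became 2 at 4 h and 1 at 8 h and the 1 lower at 8 h became 0, as it also did with barcodes in place of counts. Against the no LPS library 14.9% of all genes were higher at 4 h, and 9.51% higher and 13.8% lower at 8 h. The share with barcodes was not computed. TMM moved the median of all genes by 0.45 in the CD14 class at 2 h and by -0.11 over all cells at 8 h. The CD14 and NCR1 classes, with under 100 cells at some times, limit what the counts can show, and 1 library per treatment gives no replicate error. No paired analysis was possible because each treatment had 1 library and no result comes from a test.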
